A study of Ovis aries with 16 samples.

Results

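The question here is whether prenatal exposure to bisphenol A (BPA) left the same mark on gene expression in the liver and in the skeletal muscle of the same adult sheep. BPA is a plasticizer with oestrogen-like activity. The BPA difference in liver was set beside the BPA difference in muscle for every gene with a mean normalised count of at least 10 in the 8 liver libraries and of at least 10 in the 8 muscle libraries. That rule kept 13677 of 28524 genes, while 2012 genes reached the mean in liver alone and 1029 in muscle alone. The animals were 8 female Suffolk sheep, about 21 months old, fasted for 48 hours and sampled late in the follicular phase, their cycles having been synchronised with prostaglandin F2α. Control animals (C: 902, 908, 924 and 928) were the offspring of ewes given corn oil, and BPA animals (910, 918, 977 and 984) those of ewes given 0.5 mg/kg/day BPA in corn oil under the skin from day 30 to day 90 of gestation. Each animal gave 1 library from the tip of the left liver lobe and 1 from the vastus lateralis muscle, so 16 libraries formed 4 groups of 4.

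Liver makes most plasma proteins and handles sugar, lipid and amino acid supply for the body, largely in hepatocytes, with sinusoidal endothelium, Kupffer cells (resident macrophages) and stellate cells around them. Skeletal muscle consists mostly of contractile fibres with capillaries, fibroblasts and a few immune cells between them, and it takes up glucose in response to insulin. BPA can bind oestrogen receptors, and both tissues express nuclear receptors and the enzymes that make or clear steroids. In whole tissue, fewer cells of a type and less RNA per cell cannot be told apart.

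The labelled tissues carried their defining genes: 26 of 26 hepatocyte markers were higher in liver, and 28 of 28 contractile fibre markers were higher in muscle. Recovered reads ranged from 4.39 to 19.28 M (1000000 reads) in control livers, 4.66 to 17.92 M in BPA livers, 16.16 to 28.54 M in control muscles and 15.15 to 26.54 M in BPA muscles. The median was 18.24 M in control livers and 8.96 M in BPA livers. Liver libraries of 1 group differed among themselves far more than muscle libraries. The median SD within a group, on the log2 scale, was 0.457 in control liver, 0.604 in BPA liver, 0.179 in control muscle and 0.196 in BPA muscle. A pair of livers stood apart from their groups. For the control liver of 902 (4.39 M reads) the median hepatocyte marker lay 2.77 log2 units below the mean of the 8 livers and the median fibroblast marker 2.96 above it. The BPA liver of 910 (17.92 M reads) was at 1.26 for hepatocyte markers and 1.25 for cytosolic ribosomal proteins, beside 1.11 to 1.20 and 1.29 to 1.41 in the controls 908, 924 and 928, whereas the other BPA livers were at -0.32 to -0.75 and -1.55 to -2.06. Results that rest on these livers are given with and without them.

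The BPA difference was several times wider in liver than in muscle, and the 2 were close to uncorrelated across genes. Differences are BPA minus control on the scale log2(value + 1), which understates changes of low genes. In liver, 9 in 10 of the 13677 genes lay between -1.59 and 1.09, with a median of -0.04, and 2860 genes (20.9%) exceeded 1 in size. In muscle the same range was -0.36 to 0.41, with a median of 0, and 162 genes (1.18%) exceeded 1. The 4 combinations of direction held similar numbers of genes: 3322 (24.3%) were higher in both tissues, 3658 (26.7%) lower in both, 3224 (23.6%) higher in liver and lower in muscle, and 3473 (25.4%) the reverse. Across the 13677 genes, Pearson's r between the 2 differences was -0.05 and Spearman's rho 0.01, given as a description because genes of 1 library share its depth and its cells. Centring each library on its median moved the liver median from -0.04 to 0.07 and the muscle median to -0.01, and the sign of the liver median flipped for mitochondrial biogenesis (-0.06 to 0.05) and for the oestrogen panel (-0.08 to 0.03).

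No gene passed the test of whether liver and muscle differed in their BPA effect. With limma, 0 of 13677 genes (0%) had an adjusted p under 0.05, the smallest being 0.117, and 2661 (19.5%) had an unadjusted p under 0.05, of which 1052 had the higher BPA difference in liver and 1609 the lower. Within liver alone 0 of 15689 genes passed (0%), and within muscle alone 19 of 14706 (0.129%), 2 higher and 17 lower, 17 of the 19 being among the genes compared here. Leaving out 1 library changed this count. Without the BPA liver of 910, 3550 of 13694 genes (25.9%) passed, 1583 with the higher difference in liver and 1967 with the lower, and without the livers of 902 and 910 together 6329 passed. Without both, control livers had 17.93 to 19.28 M reads and BPA livers 4.66 to 10.64 M. Depth and group cannot then be told apart. Of the 3550, the liver difference was the larger in size for 3511, and 2973 had a muscle difference under 0.25 in size. edgeR called 0 genes and DESeq2 148.

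**Figure D1:**
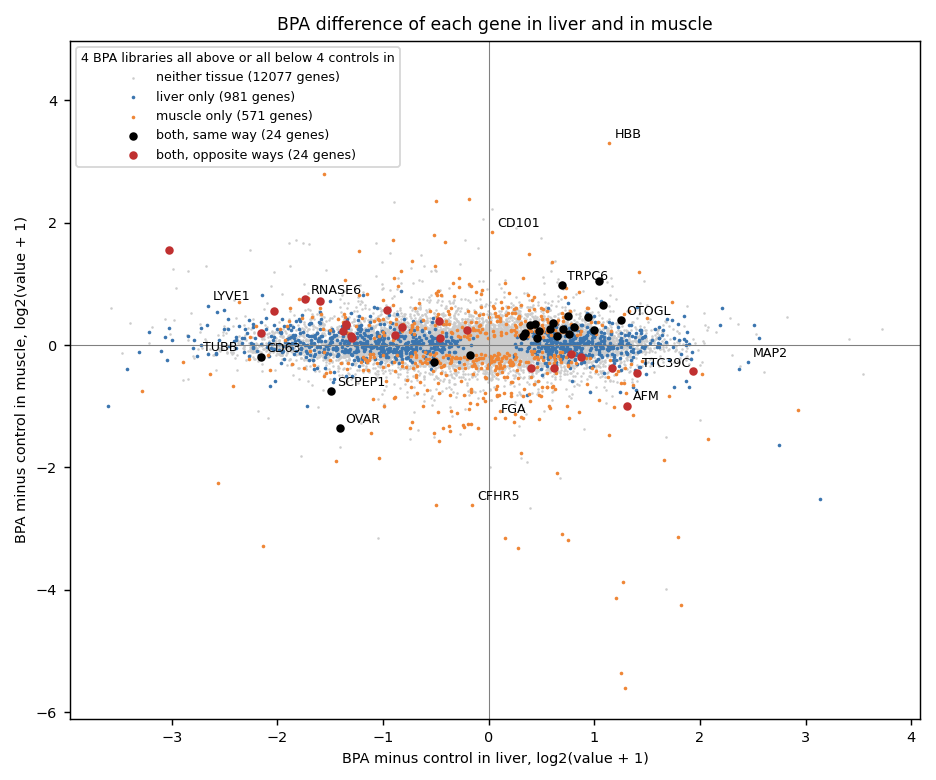
BPA minus control in liver (horizontal axis) and in muscle (vertical axis), both on the log2(value + 1) scale, for the 13677 genes. Each point is 1 gene, coloured by whether its 4 BPA libraries lay all above or all below the 4 controls in liver, in muscle, in both or in neither, and the cloud is several times wider along the liver axis (9 in 10 genes between -1.59 and 1.09) than along the muscle axis (-0.36 to 0.41).

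Among genes whose BPA difference was higher in liver than in muscle, ONECUT2, AFM and TDO2 were expressed far more in liver. ONECUT2 encodes a transcription factor of the onecut family. Its normalised counts in control livers were 5444, 6850, 6599 and 6140 and in BPA livers 6492, 9636, 9758 and 9416. In control muscles they were 94.97, 61.5, 65.7 and 63.0, and in BPA muscles 33.4, 23.8, 33.7 and 29.2. The BPA muscles were all below the controls, while in liver 910 lay inside the control range and the other 3 BPA livers above it. The difference between effects was 1.69 (95% interval 1.11 to 2.28), with a limma adjusted p of 0.117. AFM, the plasma vitamin E carrier afamin, measured 1658, 1792, 2007 and 1976 in control livers and 2874, 9188, 3357 and 5057 in BPA livers. Its muscle values were 23.1, 27.0, 20.0 and 27.8 in controls and 12.3, 9.98, 8.42 and 17.8 with BPA. The groups did not overlap in either tissue, with opposite directions, and the difference was 2.31 (95% interval 1.39 to 3.23; limma adjusted p = 0.145). TDO2, which opens tryptophan breakdown in the liver, measured 1651 to 3419 in control livers and 4139 to 7535 in BPA livers, and 24.6 to 46.3 in control muscles against 14.6 to 29.0. Its muscle groups overlapped, and its difference was 1.73 (limma adjusted p = 0.195).

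For these 3 genes the muscle level was a small share of the liver level: 0.672% for ONECUT2, 0.524% for AFM and 0.642% for TDO2. Markers of hepatocytes as a class were present in muscle at a similar share, 0.586 to 4.87% of their liver level (median 0.892%, 26 genes), and were lower in BPA muscles (median -0.53, described further on). The part of this in the muscle values of ONECUT2, AFM and TDO2 was not tested. KBTBD12, a kelch-domain gene, was the reverse case, with 39.3 in liver and 1777 in muscle on average. It measured 10.3 to 24.2 in control livers and 31.3 to 125 in BPA livers, whose ranges did not overlap, and 1639 to 2883 in control muscles against 1092 to 1816, whose ranges did. MAP2, which binds microtubules, measured 141, 86.7, 272 and 98.7 in control livers and 372, 820, 1034 and 961 in BPA livers, all above the controls. Muscle values were 64.6 to 81.8 in controls and 50.3 to 67.4 with BPA. MAP2 had a liver difference of 2.45 (SE 0.448), a muscle difference of -0.28 (SE 0.165) and a difference between them of 2.73 (95% interval 1.68 to 3.78; limma adjusted p = 0.135).

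Genes whose BPA difference was lower in liver than in muscle included the endothelial markers LYVE1 and MMRN1. LYVE1, the hyaluronan receptor of lymphatic and liver sinusoidal endothelium, measured 673, 372, 394 and 639 in control livers and 166, 79.1, 41.2 and 68.9 in BPA livers. In muscle it measured 37.7, 70.8, 45.8 and 58.1 in controls and 137, 56.0, 67.4 and 84.3 with BPA. The liver groups were far apart and the muscle groups overlapped, with 910 the highest muscle. The difference between effects was -3.31 (95% interval -4.46 to -2.15; limma adjusted p = 0.117). MMRN1, the endothelial and platelet protein multimerin, was at 19.2 to 37.6 in control livers and 2.08 to 6.24 in BPA livers, with overlapping muscle ranges of 171 to 236 and 173 to 285. TUBB, a beta-tubulin, measured 556, 427, 279 and 432 in control livers and 211, 43.7, 41.2 and 33.6 in BPA livers, and 320 to 408 against 317 to 358 in muscle. Its liver difference was -2.76 (SE 0.549) and its muscle difference -0.18 (SE 0.102). RAB27B, a small GTPase of secretion, was separated in muscle instead, at 36.5 to 52.3 in controls and 54.5 to 114 with BPA. In liver it measured 41.5 to 75.2 and 14.97 to 43.6, and the difference was -2.06 (95% interval -3.02 to -1.10). DQB, a class II major histocompatibility gene whose copies are near-identical and whose counts are therefore uncertain, was at 60.3 to 202 and 22.9 to 88.7 in liver, and at 23.1 to 43.3 and 41.2 to 77.5 in muscle. The 20 genes named for the smallest p of the difference all passed with limma without the BPA liver of 910, 0 passed with it, and DESeq2 called 19. They were chosen by this same difference in the same libraries, so these passes are no separate evidence. Without 910, 25.9% of all genes passed.

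Few genes had BPA libraries outside the control range in both tissues. A gene is called separated here when its 4 BPA libraries lay all above or all below the 4 controls. In liver 1029 genes were separated (7.52%), 442 higher and 587 lower, and in muscle 619 (4.53%), 279 higher and 340 lower. The 2 sets shared 48 genes (0.351% of all), which is 24 the same way (0.175%) and 24 in opposite ways (0.175%). The shared genes were 4.66% of those separated in liver and 7.75% of those separated in muscle, close to the shares of all genes separated in the other tissue (4.53% and 7.52%). What follows describes single genes. Of the first 24, 19 were higher in both tissues and 5 lower in both. Of the other 24, 8 were higher in liver and lower in muscle and 16 the reverse.

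The genes higher with BPA in both tissues were of mixed function. TRPC6, a cation channel, measured 24.5, 31.0, 29.2 and 29.5 in control livers and 36.7, 47.9, 44.9 and 58.8 in BPA livers. In muscle it measured 11.0, 12.6, 7.04 and 9.81 in controls and 27.9, 13.1, 19.7 and 24.3 with BPA. TRPC6 thus differed by 0.69 (SE 0.325) in liver and 0.98 (SE 0.318) in muscle, and the interval of the difference between effects ran from -1.16 to 0.58. PLEKHH3 measured 230 to 291 in control livers and 321 to 767 in BPA livers, and 599 to 764 against 850 to 1022 in muscle, where its limma adjusted p was 0.122. OTOGL, an otogelin-like gene, measured 18.8, 12.4, 29.9 and 29.5 in control livers and 61.9, 45.8, 48.7 and 53.8 in BPA livers, and 51.4 to 72.8 against 73.7 to 104 in muscle. SLC25A29, a mitochondrial carrier of basic amino acids, differed by 0.61 in liver and 0.36 in muscle, and COQ8B, needed for coenzyme Q synthesis, by 0.81 and 0.30. NEIL1, a DNA repair glycosylase, differed by 0.39 and 0.33, and TELO2, which stabilises large kinases of DNA damage signalling, by 0.58 and 0.27. NECAB3 (0.75 and 0.48), the potassium channel partner KCNIP2 (0.44 and 0.34) and the phospholipase gene GDPD3 (0.70 and 0.26) completed the 10 genes with the largest smaller difference. None of the 10 passed with limma in either tissue, with muscle adjusted p between 0.122 and 0.605.

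The 5 genes lower with BPA in both tissues were OVAR, SCPEP1, SSRP1, CD63 and SMARCC1. OVAR, a class I major histocompatibility gene, measured 3053, 9490, 3087 and 8607 in control livers and 2815, 1326, 2075 and 1981 in BPA livers. In muscle it measured 7082, 10060, 10560 and 10340 in controls and 2401, 5968, 3130 and 4000 with BPA. Its differences were -1.41 (SE 0.481) and -1.36 (SE 0.238), the difference between them was -0.05 (95% interval -1.23 to 1.13), and its limma adjusted p in muscle was 0.0697. Class I genes have near-identical copies that vary between animals, so the share of reads given to OVAR is uncertain. SCPEP1, a serine carboxypeptidase, measured 1074, 1295, 1272 and 1360 in control livers and 887, 514, 207 and 412 in BPA livers, and 509 to 877 against 368 to 469 in muscle. CD63, a tetraspanin of lysosomes and secreted vesicles, was at 1253 to 1679 in control livers, 1232 in the BPA liver of 910 and 165 to 227 in the other BPA livers. In muscle it lay at 1075 to 1253 and 953 to 1047, a difference of -0.20 (SE 0.08). SSRP1, a histone chaperone subunit, differed by -0.52 and -0.27, and SMARCC1, a chromatin remodelling subunit, by -0.18 and -0.17.

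**Figure D2:**
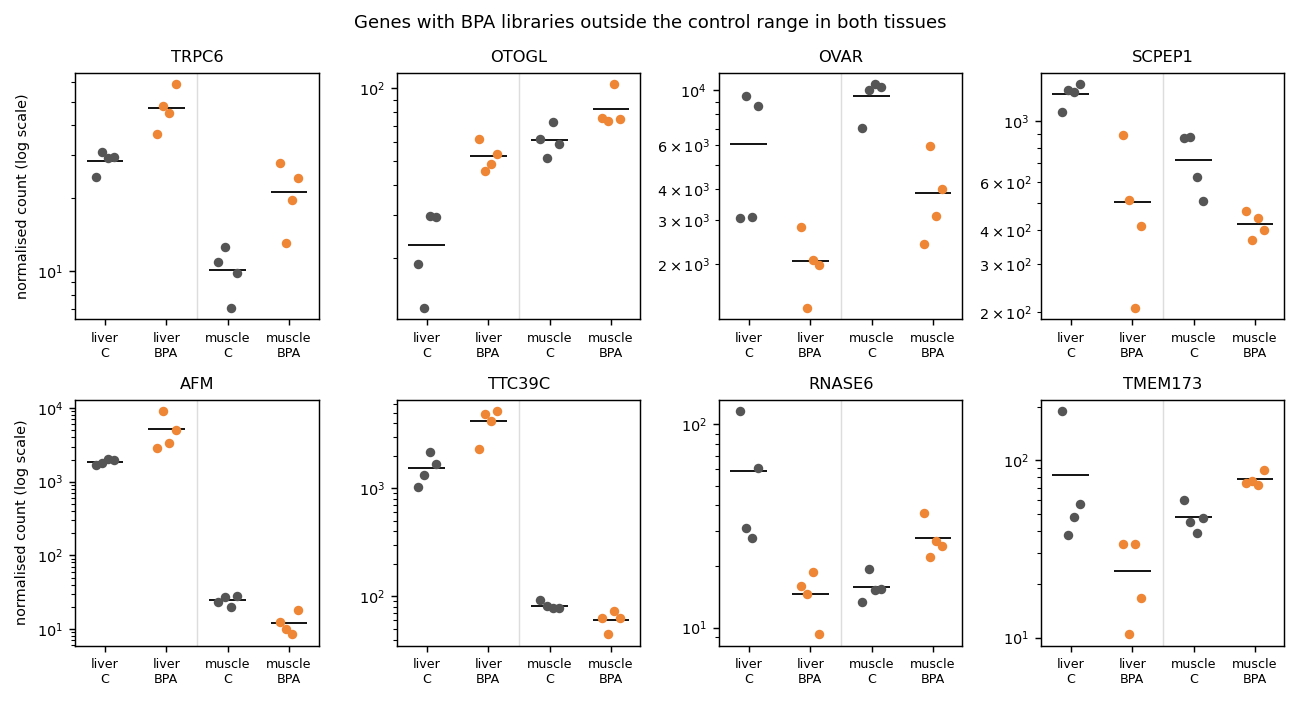
Normalised counts, on a log axis, of 8 genes in the 4 libraries of each group, with controls in grey, BPA in orange and a bar at the group mean. TRPC6 and OTOGL were higher with BPA in both tissues, OVAR and SCPEP1 lower in both, AFM and TTC39C higher in liver and lower in muscle, and RNASE6 and TMEM173 lower in liver and higher in muscle.

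Among the 8 genes higher in BPA livers and lower in BPA muscles, AFM and TTC39C had the largest differences. TTC39C, a tetratricopeptide repeat gene, measured 1038, 1322, 2164 and 1691 in control livers and 2307, 4905, 4153 and 5210 in BPA livers, and 92.5, 80.9, 78.6 and 77.7 in control muscles against 63.5, 44.5, 73.0 and 63.2. Its differences were 1.40 (SE 0.38) and -0.45 (SE 0.171), and its muscle level was 2.52% of its liver level. NEK4, a NIMA-related kinase with similar levels in both tissues (muscle at 77.4% of liver), measured 215, 330, 270 and 289 in control livers and 405, 654, 500 and 467 in BPA livers, and 353, 333, 312 and 297 against 286, 276, 286 and 277 in muscle. PTPRK, a receptor tyrosine phosphatase, differed by 0.62 and -0.37, TXNL4B by 0.78 and -0.15, and IRAK1BP1 by 0.40 and -0.38. The 2 remaining genes of the 8 have no symbol.

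The 16 genes lower in BPA livers and higher in BPA muscles included RNASE6 and TMEM173, both of innate immunity, and the actin regulators VASP and CAP1. RNASE6, an antimicrobial ribonuclease of macrophages, measured 117, 31.0, 27.7 and 61.1 in control livers and 16.1, 14.6, 18.7 and 9.24 in BPA livers. In muscle it measured 13.4, 19.4, 15.3 and 15.5 in controls and 36.8, 22.3, 26.7 and 25.1 with BPA. RNASE6 had a difference between effects of -2.49 (95% interval -3.69 to -1.30; limma adjusted p = 0.195). TMEM173, which encodes the DNA-sensing adaptor STING, measured 190, 37.8, 47.6 and 56.4 in control livers and 33.6, 10.4, 33.7 and 16.8 in BPA livers. It measured 59.7, 44.7, 38.7 and 47.4 in control muscles and 74.7, 76.7, 73.0 and 88.4 in BPA muscles, which made its muscle difference 0.72 (SE 0.167; limma adjusted p = 0.207). C1QTNF1, a secreted C1q-related protein, was at 798 to 4268 against 162 to 698 in liver, and at 124 to 199 against 214 to 286 in muscle. The actin regulators VASP (-0.82 in liver, 0.30 in muscle) and CAP1 (-1.38 and 0.23), the phosphatase and actin regulator PHACTR2 (-0.47 and 0.40) and the dynein subunit DYNC1LI2 (-0.21 and 0.25) showed the same orientation. The control liver of 902 was the highest of the 8 livers for RNASE6, TMEM173, C1QTNF1, VASP and CAP1, and that library also stood highest for macrophage and fibroblast markers. Without the BPA liver of 910, 13 of the 16 named genes separated in opposite ways passed with limma, beside 25.9% of all genes. These named genes are of both orientations, AFM and TTC39C among them, and not only those lower in liver. Their choice by opposite directions makes a large difference between effects likely.

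Most separated genes were separated in 1 tissue only, 981 in liver (7.17%) and 571 in muscle (4.17%). Among genes separated in liver whose muscle difference was under 0.25 in size, 346 were higher and 469 lower in BPA livers. PFKFB1, the enzyme that sets the level of a switch metabolite between glycolysis and gluconeogenesis, measured 499, 386, 560 and 557 in control livers and 670, 1460, 1581 and 2018 in BPA livers, and 509 to 790 against 524 to 779 in muscle. NUP210L, a nuclear pore protein gene, was at 115 to 281 and 330 to 942 in liver, and the bone morphogenetic protein antagonist CHRD at 876 to 1403 and 2126 to 4163. PALB2, of homologous recombination repair, differed by 1.74 in liver and -0.03 in muscle, CTNNA3, an alpha-catenin, by 1.61 and 0.11, and MOCOS, the molybdenum cofactor sulfurase, by 0.98 and 0.11.

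The genes lower in liver included SLCO2A1, FCER1G and 3 matrix genes. SLCO2A1, a prostaglandin transporter, measured 2286, 1470, 1158 and 620 in control livers and 235, 292, 378 and 290 in BPA livers, and 39.6 to 46.6 against 29.9 to 52.4 in muscle. FCER1G, the signalling chain of Fc receptors, measured 286, 178, 186 and 202 in control livers and 120, 18.7, 31.2 and 37.8 in BPA livers, and 57.2 to 97.4 against 59.9 to 85.8 in muscle. The matrix genes MFAP4 (-2.85 in liver, 0.14 in muscle), MGP (-2.72 and 0) and LOXL4 (-1.76 and 0.21) and the surface proteins PODXL (-1.99 and -0.08) and GPC1 (-1.69 and -0.17) were alike. SRXN1, which reactivates peroxiredoxins, was at 292 to 332 in control livers and 56.2 to 214 in BPA livers, with wide and overlapping muscle ranges of 109 to 462 and 166 to 383. Of the 20 named genes of this liver pattern, 19 passed for the difference with limma without the BPA liver of 910, beside 25.9% of all genes. They were chosen by liver p with a small muscle difference, which makes a pass likely.

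Among genes separated in muscle whose liver difference was under 0.25 in size, 66 were higher and 105 lower in BPA muscles. The lower ones included 5 plasma protein genes, FGA, FGG, GC, C9 and CFHR5. FGA, a fibrinogen chain, measured 1577, 1598, 1579 and 1777 in control muscles and 872, 649, 640 and 693 in BPA muscles, a difference of -1.20 (SE 0.106; limma adjusted p = 0.000618). Its liver values overlapped, at 18350 to 95330 in controls and 35860 to 205300 with BPA. The lowest control liver was 902 and the highest BPA liver 910. Without these, controls were at 82560 to 95330 and BPA livers at 35860 to 56040. FGG, which encodes another chain, fell by 1.31 in muscle (SE 0.12; limma adjusted p = 0.000741). The complement gene C9 was at 156 to 175 and 59.9 to 144 in muscle, the factor H-related gene CFHR5 at 22.9 to 174 and 4.86 to 14.5, and the vitamin D-binding protein gene GC at 348 to 546 and 167 to 277. CFHR5 averaged 67.5 in control and 7.58 in BPA muscles, so it reached the mean of 10 through the controls. In liver all 5 genes had 902 as the lowest control and 910 as the highest BPA liver. Their other BPA livers lay below the other controls, so the small liver differences rest on 902 and 910. These genes are liver products, and their muscle levels were 0.931% (C9) to 4.44% (CFHR5) of their liver levels. DIAPH1, a formin that builds actin filaments, had a muscle level at 60.2% of its liver level, and measured 2149, 2557, 2890 and 1670 in control muscles and 1570, 1257, 1093 and 1310 in BPA muscles, a difference of -0.81 (SE 0.162; limma adjusted p = 0.113). CAST, which encodes the calpain inhibitor calpastatin, was at 2073 to 2196 and 1630 to 1803 in muscle, a difference of -0.31, and the deubiquitinase gene UCHL3 at 133 to 187 and 93.2 to 114.

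The genes higher in muscle included LTC4S, ACSS3 and P2RX4. LTC4S, a leukotriene synthase, measured 52.4, 28.7, 31.7 and 31.1 in control muscles and 68.0, 59.1, 56.1 and 73.0 in BPA muscles, and 330 to 810 against 546 to 680 in liver. ACSS3, a mitochondrial acyl-CoA synthetase, was at 315 to 400 and 438 to 511 in muscle, and COQ10B, of coenzyme Q handling, at 40.2 to 66.2 and 74.4 to 118. PRUNE2 was at 94.97 to 175 and 184 to 278 in muscle, with a liver range of 128 to 1553 that held both groups. CD101, an immune surface protein, was at 1.64 to 7.31 and 9.83 to 32.3 in muscle, and the ATP-gated channel P2RX4 at 63.2 to 101 and 110 to 134. CD101 averaged 4.42 in control and 17.45 in BPA muscles, so it reached the mean of 10 only through the BPA muscles. Of the 20 named genes of this muscle pattern, 1 passed for the difference without the BPA liver of 910, beside 25.9% of all genes. They were chosen for a small liver difference, which makes a pass unlikely, so this count is no separate evidence.

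**Figure D3:**
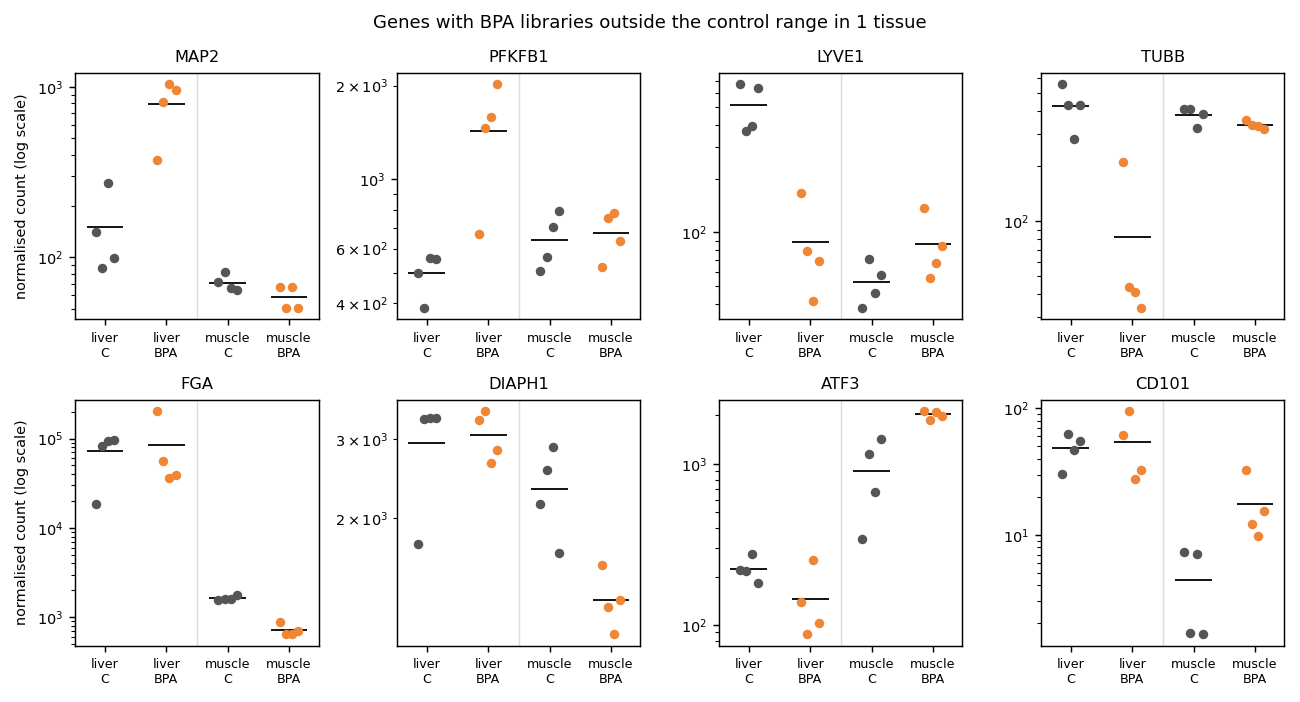
Normalised counts, on a log axis, of 8 genes in the 4 libraries of each group, with controls in grey, BPA in orange and a bar at the group mean. MAP2 and PFKFB1 were higher and LYVE1 and TUBB lower in BPA livers with overlapping muscle groups, FGA and DIAPH1 were lower and ATF3 and CD101 higher in BPA muscles with overlapping liver groups. CD101 reached the mean of 10 in muscle only through the BPA muscles, and the FGA livers overlapped only through 902 and 910.

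Lists of protein synthesis and energy supply had lower medians in BPA livers and medians near 0 in muscle. Of 74 cytosolic ribosomal protein genes, 74 had a lower estimate in liver, with a median of -2.03, and 51 had one in muscle, with a median of -0.03. All genes compared had medians of -0.04 and 0. The muscle count was 33 without the muscle of 908. In muscle the 74 genes ranged only from -0.23 to 0.42. RPS3, a small subunit protein, measured 859, 1000, 1703 and 1923 in control livers and 1117, 204, 102 and 113 in BPA livers, and 1121 to 2177 against 1246 to 2228 in muscle. The groups overlapped in liver through 910, and 0 of the 74 genes were separated there (7.52% of all genes were), while 68 had an unadjusted p under 0.05 for the difference (19.5% of all genes). Without the BPA liver of 910 the liver median was -2.77 and 74 of 74 passed with limma, beside 25.9% of all genes. This list was among those by which 910 stood apart from its group, so the outcome follows from leaving it out. EEF1A1, the main elongation factor, differed by -2.36 in liver and 0.14 in muscle, and 30 of the 45 translation factors were lower in both tissues. That count was 22 without the muscle of 908 and 25 without the muscle of 910.

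Nuclear genes of oxidative phosphorylation (57 genes) had medians of -1.47 in liver and -0.09 in muscle, 49 of them being lower in both. That count was 24 without the muscle of 910 and 31 without the muscle of 902. In liver 0 of the 57 were separated, beside 7.52% of all genes. The liver median was -1.94 without the liver of 902 and -2.04 without that of 910. The complex I gene NDUFA1 (-2.69 and 0.10) and the ATP synthase gene ATP5F1E (-2.55 and -0.04) were at the far end. Proteasome genes (43) had medians of -0.82 and -0.13 with 37 lower in both, and mitochondrial ribosomal proteins (73) -0.49 and -0.14 with 51 lower in both. Their liver medians were -1.07 and -0.83 without the liver of 902, and -1.15 and -0.71 without that of 910. The muscle medians moved with 1 animal: without the muscle of 910 the muscle medians were 0.02 for oxidative phosphorylation, -0.04 for the proteasome and -0.06 for mitochondrial ribosomal proteins. Glycolysis genes (22) had medians of -0.97 and -0.07, or 0.05 in muscle without 910. In liver PGAM1, TPI1 and PFKFB1 differed by -2.46, -2.01 and 1.42, and in muscle by -0.01, -0.17 and 0.07. Redox genes (41) had medians of -0.87 and -0.04, with GPX1 (-2.35 and 0.02), PRDX1 (-2.23 and -0.09) and TXN (-1.99 and 0.08) the leading members. Unfolded protein response genes (35) had medians of -0.74 and -0.04, and heat shock genes (49) of -0.58 and -0.06.

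**Figure D4:**
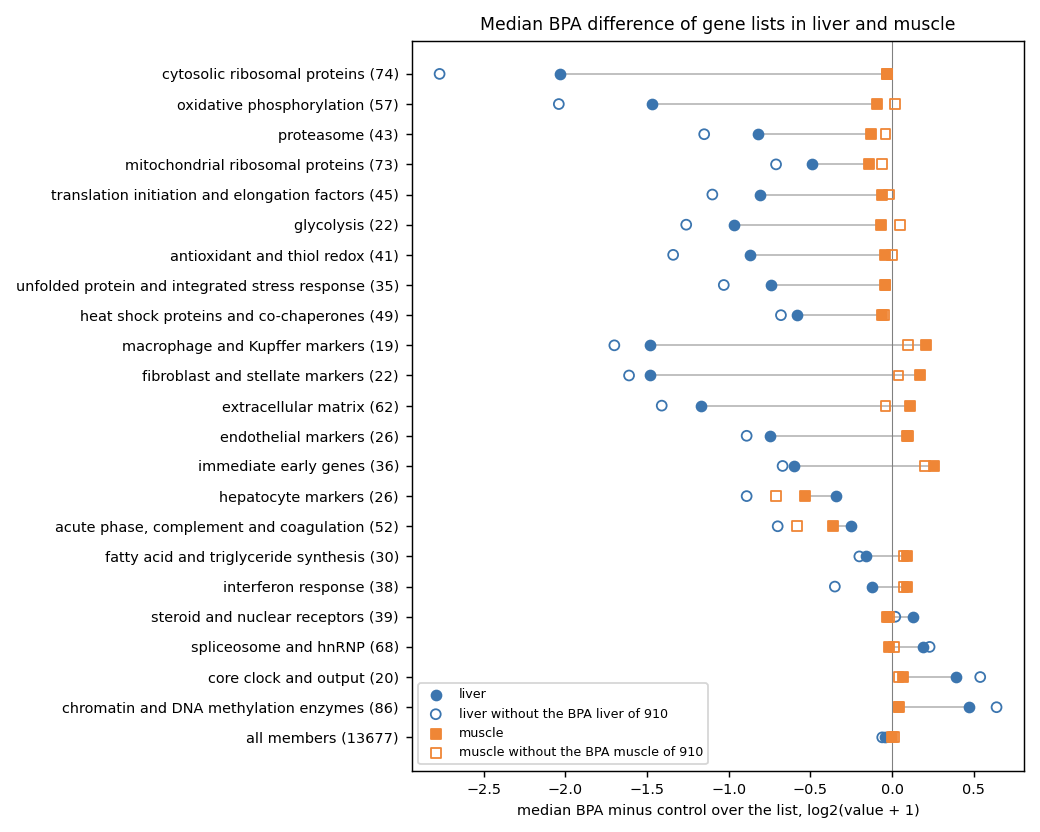
Median BPA minus control of each gene list, log2(value + 1), in liver (blue circles) and muscle (orange squares), with open symbols for the medians without the BPA liver or the BPA muscle of 910. The number of genes follows each name; liver medians spread from -2.03 to 0.47 and muscle medians of the lists shown from -0.53 to 0.26.

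Chromatin genes had mostly higher estimates in liver. Of 86 genes of chromatin and DNA methylation enzymes, 53 were higher in both tissues and 23 higher in liver and lower in muscle, with medians of 0.47 in liver and 0.04 in muscle. In liver 4 of the 86 were separated higher and 1 lower, and in muscle 1 each way, which is 5.81% and 2.33% beside 7.52% and 4.53% of all genes. Without the muscle of 902, 35 were higher in liver and lower in muscle. The remodeller CHD2 differed by 1.15 in liver and -0.11 in muscle and the histone methyltransferase NSD1 by 0.95 and -0.01, whereas the methyltransferase SETD7 (-1.24 and 0.27) was separated lower in liver. Core clock genes (20) had medians of 0.39 and 0.07, PER3 differing by 1.69 and 0.01 and ARNTL, the partner of CLOCK, by 0.93 and 0.17. Splicing genes (68) were split, with 26 higher in both, 23 lower in both (15 without the muscle of 910), and medians of 0.19 and -0.02.

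Markers of macrophages, fibroblasts and matrix had medians of opposite sign in the 2 tissues. Of 19 macrophage markers, 17 were lower in BPA livers and higher in BPA muscles, with medians of -1.48 and 0.21, 7 being separated lower in liver (36.8%, beside 4.29% of all genes) and 1 higher in muscle (5.26%, beside 2.04%). CSF1R, the macrophage growth factor receptor, measured 3529, 1503, 1307 and 1943 in control livers and 1109, 310, 528 and 691 in BPA livers. In muscle it measured 386, 309, 343 and 273 in controls and 552, 299, 416 and 438 with BPA, where the groups overlapped. LAPTM5, a lysosomal protein of blood cells, differed by -2.36 and 0.31. Fibroblast and stellate markers (22) had medians of -1.48 and 0.17, with 17 in this orientation. Matrix genes (62) had medians of -1.17 and 0.11, with 46 in it and 18 separated lower in liver (29.0%, beside 4.29% of all genes). Without the liver of 902 the liver medians were -1.16 for macrophage, -1.08 for fibroblast and -0.78 for matrix genes. Without the liver of 910 they were -1.70, -1.61 and -1.41. MMP2, a matrix protease, measured 441, 295, 292 and 342 in control livers and 238, 77.0, 105 and 79.0 in BPA livers, and 415 to 625 against 427 to 1025 in muscle, 910 being the highest muscle. The muscle of 910 held the top score of the 8 muscles for macrophages (0.65), fibroblasts (0.58) and matrix (0.56). Without that animal the muscle median was 0.10 for macrophage markers and -0.04 for matrix genes, and 11 of the 19 and 25 of the 62 had opposite signs. For fibroblast markers it was 0.04, with 14 of 22. HBB, a beta-globin and marker of red cells, measured 6.09, 0.843, 3.52 and 3.27 in control muscles and 175, 20.0, 8.42 and 68.1 in BPA muscles. All 4 BPA muscles lay above the controls, a difference of 3.30 (limma adjusted p = 0.224), or 2.58 without the muscle of 910. In liver HBB was at 83.3 in 910 and at 0 to 4.99 in the other 7. HBB thus reached the mean of 10 through the BPA group in muscle and through 910 alone in liver. The part of blood content in the muscle values was not tested.

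Endothelial markers (26) had medians of -0.75 and 0.09, 15 of them being lower in liver and higher in muscle, and the muscle median was 0.10 without the muscle of 910. Among them CLDN5, a tight junction protein, differed by -2.13 and 0.14. Lysosome and autophagy genes (64) had medians of -0.56 and -0.02, with 12 separated lower in liver (18.8%, beside 4.29% of all genes). The lysosomal lipase LIPA measured 1773, 531, 578 and 791 in control livers and 477, 106, 67.4 and 129 in BPA livers, with 50.7 to 89.3 and 78.3 to 118 in muscle. CTSS, a cathepsin of antigen-presenting cells, differed by -1.80 and 0.43. These values stand beside the macrophage values given above, and the part of cell content in them was not tested.

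Immediate early genes, which respond within minutes to hormones and stress, also had medians of opposite sign. Of 36, 26 were lower in BPA livers and higher in BPA muscles, with medians of -0.60 and 0.26, 3 being separated lower in liver (8.33%, beside 4.29% of all genes) and 4 higher in muscle (11.1%, beside 2.04%). ATF3 measured 341, 1159, 671 and 1436 in control muscles and 2139, 1884, 2112 and 1989 in BPA muscles, a difference of 1.37 (limma adjusted p = 0.258), and 183 to 277 against 87.5 to 253 in liver. BTG2 measured 603, 1016, 660 and 1136 in control muscles and 1521, 1814, 2045 and 1672 in BPA muscles, a difference of 1.09 (limma adjusted p = 0.0697), and -0.28 in liver. The control muscle of 902 had the lowest score for this list (-0.46, beside -0.21 to 0.15 in the other controls). The muscle median was 0.20 without the muscle of 910, with 22 of 36 genes of opposite sign without that animal. Without animal 902 the median was 0.19 and 17 of 36 genes had opposite signs, beside 27 with all libraries.

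Plasma protein genes had lower medians with BPA in both tissues. Hepatocyte markers (26) had medians of -0.34 in liver and -0.53 in muscle, 20 of them being lower in both (11 to 13 without 1 of the control livers 908, 924 and 928). In muscle 7 were separated lower (26.9%, beside 2.49% of all genes). Acute phase, complement and coagulation genes (52), which share the fibrinogen genes with that list, had medians of -0.25 and -0.36, with 11 separated lower in muscle (21.2%). APOB, the apolipoprotein of lipoprotein export, measured 1054, 690, 651 and 688 in control muscles and 611, 280, 484 and 431 in BPA muscles. In liver it measured 15160 in 902, 90970 to 98670 in the other controls and 59650 to 95490 with BPA. The liver value depended on the libraries that stood apart, the hepatocyte median being -1.38 without 902, -0.89 without 910 and -1.98 without both. The order of the muscle scores was 902 highest (0.78) and 918 lowest (-0.80), with the other controls at -0.06 to 0.18 and the other BPA muscles at -0.34 to 0.25.

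Genes were also sorted by the tissue that expresses them. Of 762 genes at least 10 times higher in liver, 49 were separated higher and 4 lower in BPA livers, whereas in muscle 11 were separated higher and 54 lower. Over all genes the shares were 3.23% higher and 4.29% lower in liver, and 2.04% and 2.49% in muscle. Their medians were 0.06 in liver and -0.12 in muscle, and 12 of the 17 genes that passed in muscle belonged to this set, which holds 5.57% of all genes, 11 of them lower. Of 428 genes at least 10 times higher in muscle, 10 were separated higher and 37 lower in liver, and 6 and 20 in muscle, with medians of -0.31 and -0.08. The 12487 genes between these limits had medians of -0.05 and 0, and held 24 genes separated the same way and 21 in opposite ways.

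**Figure D5:**
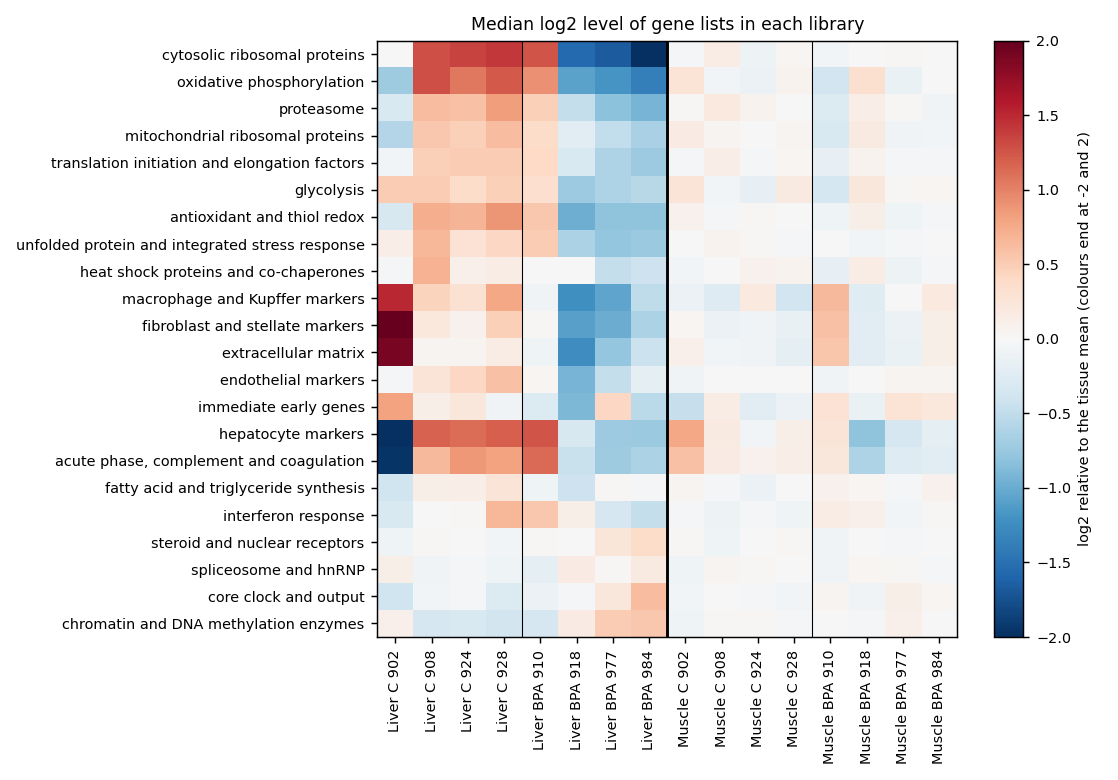
Median log2 level of the members of each list in each of the 16 libraries, relative to the mean of the 8 libraries of that tissue, with colours ending at -2 and 2. Liver columns carry most of the colour: the BPA liver of 910 is close to the controls 908, 924 and 928 in most lists, the control liver of 902 is low for hepatocyte markers (-2.77) and high for fibroblast markers (2.96), and among muscles 910 is high for macrophage (0.65) and matrix (0.56) genes.

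Fatty acid and triglyceride synthesis genes (30) had medians of -0.16 in liver, which was -0.04 with centred libraries, and 0.09 in muscle, with 15 lower in liver and higher in muscle. Their liver median was -0.44 without the liver of 902 and -0.2 without that of 910. SCD, the stearoyl-CoA desaturase, measured 1707, 326, 341 and 387 in control livers and 178, 140, 147 and 177 in BPA livers, and 106 to 195 against 120 to 302 in muscle. FASN, the fatty acid synthase, measured 1006, 995, 951 and 932 in control muscles and 1217, 1206, 1224 and 1306 in BPA muscles, a difference of 0.35 (limma adjusted p = 0.122), and 427 to 1289 against 181 to 618 in liver. Cholesterol synthesis genes (22) had medians of -0.55 and 0, and insulin and growth factor signalling genes (58) -0.29 and -0.04. Of those 58, 8.62% were separated in liver and 6.90% in muscle, beside 7.52% and 4.53% of all genes, and of 39 steroid and nuclear receptors 5.13% and 2.56%. The liver median of these receptors was 0.13, which became 0.27 without the BPA liver of 918 and 0.02 without that of 910.

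Of 19 genes tied to oestrogen action or to BPA in earlier work, 6 were higher in both tissues, 4 lower in both and 9 of opposite sign, with medians of -0.08 in liver (0.03 with centred libraries) and 0.04 in muscle. The liver median was -0.45 without the liver of 902, -0.02 without that of 910 and -0.54 without both. The oestrogen receptor gene ESR1 differed by -0.78 in liver and -0.10 in muscle, and the membrane receptor gene GPER1 by 0.94 and 0.13. The progesterone receptor gene PGR was at 300 in the control liver of 902 and at 0 to 7.56 in the other 7 livers, and at 56.5 to 73.9 against 61.8 to 76.0 in muscle. PGR thus reached the mean of 10 in liver through 902 alone. NRIP1, a corepressor of nuclear receptors, measured 1269, 1406, 1481 and 1849 in control muscles and 1109, 1111, 1172 and 1085 in BPA muscles, a difference of -0.41, and 658 to 816 against 681 to 1387 in liver. HSD17B12, a steroid and fatty acid enzyme, measured 174, 159, 190 and 161 in control muscles and 93.6, 132, 84.2 and 89.2 in BPA muscles, a difference of -0.79 (limma adjusted p = 0.113), and 136 to 175 against 62.4 to 137 in liver. Both were separated in muscle, as 10.5% of the 19 genes were (4.53% of all genes), and their liver groups overlapped. In liver 0 of the 19 were separated, beside 7.52% of all genes. Outside these 19 genes, a panel of 5 genes named earlier for their liver response had 100% separated in liver, which their choice made likely. AFMID, of tryptophan breakdown, was separated in liver at 554 to 810 and 1172 to 2804, and the cell cycle inhibitor CDKN1A at 284 to 526 and 52.4 to 141. Their muscle groups overlapped, at 31.2 to 49.9 and 42.1 to 62.4 for AFMID and at 748 to 1739 and 413 to 1216 for CDKN1A.

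Families grouped by the letters of their symbols also differed mainly in liver. Of 81 families with at least 15 members, 81 had a muscle median within 0.2 of 0, whereas liver medians ran from -1.97 to 0.92. The families furthest below muscle in liver were the ribosomal RPL (42 genes, -1.97 in liver and -0.03 in muscle) and RPS (43 genes, -1.84 and -0.04), the tetraspanins TSPAN (17 genes, -0.84 and 0.08), the CD surface molecules (55 genes, -0.74 and 0.10) and the small membrane proteins SMIM (16 genes, -0.73 and -0.02). RPS also takes in kinases such as the RPS6K genes. Those furthest above were the centrosomal CEP genes (33 genes, 0.92 and 0.01), of which 31 were higher in liver and 17 in both tissues, KIAA (32 genes, 0.60 and 0), the tetratricopeptide TTC genes (26 genes, 0.53 and -0.05), the RNA-binding RBM genes (30 genes, 0.55 and -0.01) and the PHF finger genes (17 genes, 0.53 and 0.01). The RPS and RPL medians in liver were -2.57 and -2.70 without 910 and -2.24 and -2.27 without 902.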

How the data were processed

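RNA from liver and muscle was depleted of ribosomal RNA and sequenced, per the labels' protocols. The submitters' processing notes name DESeq2 1.24.0, Trimmomatic and FastQC. Aligner, counter, annotation, build and strandedness were not given in the sources, so overlapping genes and near-identical copies stay uncertain. The deposited table holds a normalised count signal: each gene has its reads scaled by the size factor of the library. Whole reads were recovered from the deposited signal: 99.995% of values or more in each library were whole to within 0.1 of a read. Of 28524 rows, 3425 were at 0 in every library, and 22718 names were found in the RefSeq table of ARS-UI_Ramb_v3.0. No column was left unused.

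Values were analysed as log2(value + 1) with limma 3.58.1 (R 4.3.3; eBayes with an intensity trend, Benjamini-Hochberg adjustment over all genes tested, threshold 0.05). The difference between effects was fitted over 4 groups of 16 libraries, and each tissue also alone. The joint fit used 1 variance per gene for both tissues, although livers varied more, and its intervals can be too narrow for some genes. For ONECUT2 its SE was 0.275, beside 0.353 in liver alone and 0.2 in muscle alone. For MAP2 the joint SE was the larger, at 0.494 beside 0.448 in liver alone and 0.165 in muscle alone. A joint fit weighted by the spread of each tissue called 0 genes. Intervals are 95%. Genes named are symbols chosen by size or p within each pattern, the 3 smallest p of each list, and 2 panels. The genes, lists and families were chosen with earlier results of these data known. edgeR 4.0.16 (quasi-likelihood) and DESeq2 1.42.0 were run on the recovered reads. The code was tested on simulated data. Tissues were paired by animal, per the labels; an animal's deviations in its 2 tissues correlated by -0.10 to 0.12 across genes, and the highest correlation with another animal was 0.09 to 0.17. Promoter motifs were not analysed here, and 1 gene that met the naming rule is not reported here.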

Additional observations from a re-analysis of the deposited data

Results flagged for a closer look

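Within-group outliers were looked for in 46 genes named for the largest differences between effects or for separation in both tissues, by Dixon's ratio on the log2 scale in each group of 4. Of 184 groups, 17 held a library far from the other 3. Chance flags about 1 in 20 groups.

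The control liver of 902 was flagged low for TDO2 (1651), SLC25A29 (1138), NEIL1 (62.18) and PTPRK (563.4), and high for ZNF385A (158.3). The control muscle of 902 was high for ONECUT2 (94.97) and low for OVAR (7082), and the control muscle of 924 was high for NECAB3 (77.45). The BPA liver of 910 was low for ONECUT2 (6492) and high for TUBB (210.9) and CD63 (1232), on the control side each time. The BPA liver of 918 was low for SSRP1 (435.1) and VASP (174.9). Among BPA muscles, 910 was low for TMEM266 (213.9) and high for KCNIP2 (432.3) and CAP1 (489.1), and 977 was high for OTOGL (103.9). Most of the 17 flags fell on libraries of the animals 902 and 910.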

How the results depend on the processing

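Of 158 recomputed counts, 106 were classed as the same, 50 as stronger and 2 as weaker. Of 2038 list medians 23 moved by more than the spread between replicates. The difference between BPA effects was called for 8245 genes with sample quality weights, 148 with DESeq2 and 6329 without the livers of 902 and 910, and leaving out single libraries or animals gave 0 to 3550 genes (2 without the control liver of 902, 3020 without animal 910). With the animal as a replicate block it was called for 0 genes in its fixed and its random form, and it changed the call of no named gene tested with it. Other results were not run with it. Muscle calls were 377 with sample quality weights and 131 with DESeq2, and 11 (without 984) to 31 (without 910) when animals were left out. Liver calls were 9588 with weights, 196 with DESeq2 and 6594 without the livers of 902 and 910, and 0 to 2595 (without 910) in the single omissions. Separation with fewer libraries is easier to reach: the same-way count ran from 27 to 174 and the opposite count from 25 to 184 in the single omissions, and without the livers of 902 and 910 they were 208 and 155.

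Differences between effects that changed sign were those of GC (-1.40), FGG (-0.64), ECHDC3 (-0.14), C9 (-0.04) and ADAP1 (0.08) with sample quality weights, those of GC (-0.92), ECHDC3 (-0.37) and FGG (-0.27) without the livers of 902 and 910. In single omissions GC ran from -0.54 to 1.34 and ECHDC3 from -0.11 to 1.31, negative without the liver of 902 (-0.41 and -0.04) or the animal 902 (-0.54 and -0.11). Liver depth ran from 4.39 M reads, with a within-group SD of 0.457 to 0.604, and its part in the liver calls was not tested. The livers with the fewest reads were 902, 918, 977 and 984, so depth and group are partly confounded among all livers and cannot be told apart. Without 902 and 910 they are fully confounded, at 17.93 to 19.28 M reads in control and 4.66 to 10.64 M in BPA livers. Other causes of these shifts were not tested.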

Other observations

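Fibrinogen messages (FGA, FGB and FGG summed) were set against albumin (ALB) in each library, since both are liver products. In control livers the sum was 31.9, 33.8 and 35.9% of ALB, and 356% in 902, whose ALB was 10450 beside 677300 to 739600. In BPA livers it was 60.8 to 99.2%. In muscle it was 63.8 to 121% in controls and 49.8 to 80.6% with BPA. In liver the BPA values lay above those of 3 controls and below that of 902, and in muscle the groups overlapped. The control muscle of 902 had the highest ALB of the 8 muscles (7747) and the control liver of 902 the lowest of the 8 livers.

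Contractile fibre genes were present in liver at 0.00166 to 0.45% of their muscle level. ACTA1, skeletal actin, measured 18.8 in the control liver of 902, 0.688 to 1.42 in the other control livers, and 2.29, 43.7, 4.99 and 51.2 in BPA livers, beside 823700 to 1162000 in muscle. Neutrophil markers (4 genes) had a median of 0.63 in muscle, or 0.39 without the muscle of 910. In muscle NCF1, an oxidase subunit of phagocytes, measured 13.1 to 14.1 in controls and 56.8, 20.0, 19.6 and 26.8 with BPA.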
